A study of Mus musculus with 16 samples.

Results

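Krüppel-like factors are transcription factors that end in a row of C2H2 zinc fingers and bind GC-rich and CACCC-type sites near the genes they control. The 7 members described here, Klf2, Klf3, Klf4, Klf6, Klf7, Klf10 and Klf13, were taken by gene symbol from the 27998 genes counted in each of 8 single-cell libraries of mouse bone marrow, and all 7 were present in every library. The marrow came from 16 C57BL/6 mice, 6 to 12 weeks old by the labels, and was depleted of cells with mature lineage markers (Lin- BM), so mature cells are under-represented. There were 4 mice in each of 4 groups, namely WT (Tet2fl/fl) with vehicle, WT with IL1β, Tet2-KO (Vav-Cre-Tet2-/-) with vehicle and Tet2-KO with IL1β. IL1β, an inflammatory cytokine, was given intraperitoneally at 500 ng per mouse and day for 5 weeks. Vav-Cre is active across blood cells and was carried by the Tet2-KO mice alone, so an effect of Cre and one of the loss of Tet2 cannot be told apart. Each library holds a pool of 2 hashtagged mice of 1 group, mice 1 and 2 or mice 3 and 4, so a difference between the pairs and one between libraries cannot be told apart either.

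The family falls into functional kinds. Klf2, Klf4, Klf6 and Klf7 carry acidic activation regions, Klf3 represses genes through the CtBP corepressors, and Klf10 and Klf13 recruit the Sin3 corepressors. Klf2 is known for keeping lymphocytes quiescent and on course between blood and lymph node, Klf4 for the maturation of monocytes, Klf6 for its fast induction by growth signals and stress, and Klf10 as an early gene of TGFβ signaling. In marrow, Klf3 is known from erythroid cells, where it competes for the sites of the erythroid activator Klf1, and Klf13 from the control of the chemokine gene Ccl5 in T cells.

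Of 121405 barcodes, 94917 passed the limits on detected genes and mitochondrial UMIs, and 57896 of them carried the hashtag of a single mouse. The 8 libraries had medians of 4436 to 7363 UMIs per kept cell, and any pair of libraries shared 26 to 101 barcodes. Mice gave 698 to 6432 cells each. Cells were sorted into classes by gates on marker genes, none of them a Krüppel-like factor, which placed 51174 of the cells of a mouse and left 6031 that met no gate and 691 that were tied between gates. Among the 10 genes that set a class most apart, the gate's own markers stood for 14 of 15 classes (1 to 7 genes), which selection on these markers favours. The exception was the monocytes, led by Fn1, S100a4 and Lgals3. In megakaryocyte-erythroid progenitors Apoe was the only marker of the gate among the 10. The class gated on Mpo, Cd34, Prtn3 and Plac8 was led by 5 markers of multipotent progenitors and is called Mpo/Cd34-gated cells here. Cells that lay at the limit of the gate or met a second gate made up 2843 of 17481 granulocyte progenitors, 2087 of 7718 CFU-E stage progenitors, 569 of 2073 immature neutrophils, 1282 of 2004 HSC-like cells, 1370 of 1728 Mpo/Cd34-gated cells, 3502 of 4042 monocyte-primed progenitors and 507 of 512 erythroblasts. They were 2773 of 4574 monocytes and 1064 of 1299 megakaryocyte-erythroid progenitors. Classes are therefore marker-gated ranges and not sorted populations. The 3′ UMIs of Tet2 do not tell a deleted allele from an intact one and were 35.2 to 45.5 CPM in Tet2-KO vehicle mice against 29.9 to 46.3 in WT vehicle mice, and 58.4 to 77.0 CPM in Tet2-KO IL1β mice against 52.6 to 60.4 in WT IL1β mice.

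Klf2, Klf4 and Klf6 differed most between the pairs of mice of a Tet2-KO group, as described further on, and the 250 bases before their RefSeq start sites (GRCm38.p6) are shown for that reason. Searched on both strands were TGACTCA (AP-1), TGACGTCA (CRE), GGGCGG (GC box), CACCC (the core bound by the family) and the SRF CArG box. Capitals mark each match, and the sequences read 5′ to 3′ on the strand of the gene, which is + for Klf2 at chr8:72318812-72319061, - for Klf4 at chr4:55532476-55532725 and + for Klf6 at chr13:5861239-5861488.
Klf2: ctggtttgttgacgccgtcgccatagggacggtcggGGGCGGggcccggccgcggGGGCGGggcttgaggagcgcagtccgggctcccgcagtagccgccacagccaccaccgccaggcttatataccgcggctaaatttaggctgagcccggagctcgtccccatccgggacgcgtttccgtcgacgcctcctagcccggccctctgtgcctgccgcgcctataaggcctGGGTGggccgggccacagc
Klf4: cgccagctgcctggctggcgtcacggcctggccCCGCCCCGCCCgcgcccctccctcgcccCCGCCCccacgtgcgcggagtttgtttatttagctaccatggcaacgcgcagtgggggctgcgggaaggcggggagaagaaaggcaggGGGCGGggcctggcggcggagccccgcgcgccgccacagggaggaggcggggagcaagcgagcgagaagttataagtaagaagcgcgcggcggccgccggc
Klf6: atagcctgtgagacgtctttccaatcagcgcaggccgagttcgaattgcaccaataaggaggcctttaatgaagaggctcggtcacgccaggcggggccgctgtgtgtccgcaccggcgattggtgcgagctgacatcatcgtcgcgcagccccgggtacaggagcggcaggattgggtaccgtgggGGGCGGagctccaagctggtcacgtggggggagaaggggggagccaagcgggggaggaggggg
Klf2 had 2 GC boxes and 1 CACCC, Klf4 had 4 GC boxes and Klf6 had 1 GC box. Of the other members, Klf3 had 6 GC boxes and 5 CACCC, Klf7 had 1 and 3, and Klf13 had 3 and 1, where a GC box and a CACCC overlap by 1 base in Klf3 and in Klf13, as do a pair of GC boxes in Klf4. A GC box was found in 32.74% and a CACCC in 52.01% of all 32851 promoters of that table. None of the 6 windows held TGACTCA, TGACGTCA or a CArG box, which 4.46%, 1.55% and 1.47% of all windows held. The GC content of the windows was 59.2% (Klf7) to 78.4% (Klf3), against a median of 52.4% over all promoters. By the gene models given below, the windows of Klf2, Klf3 and Klf6 overlap the start of the gene and that of Klf7 lies within the gene. Some matches are thus upstream of the RefSeq start alone.

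The members were read from different parts of the genome (GRCm38, GENCODE M21 gene models), at chr8:72319033-72321656 (Klf2, ENSMUSG00000055148), chr5:64803388-64832901 (Klf3, ENSMUSG00000029178), chr4:55527143-55532466 (Klf4, ENSMUSG00000003032), chr13:5861482-5870394 (Klf6, ENSMUSG00000000078), chr1:64029447-64122282 (Klf7, ENSMUSG00000025959), chr15:38291463-38300706 (Klf10, ENSMUSG00000037465) and chr7:63886351-63938915 (Klf13, ENSMUSG00000052040). Levels are UMIs of a gene relative to all UMIs of that class in a mouse (counts per 1e6, CPM), given as mean ± SD over the 13 to 16 mice in which the class held 10 cells or more, with the 4 groups pooled. Levels are compared between classes for 1 gene at a time and not between genes. Classes that follow each other in a gene's order were compared within mice with exact two-sided sign-flip permutation tests of log2(CPM + 1), adjusted over all 98 such steps. Of these, 16 steps differed and 82 were not shown to differ.

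The leading class differed between most members. Klf4 was highest in monocytes, Klf7 in megakaryocyte progenitors, Klf6 in basophils and Klf3 in erythroblasts. Klf2 was led by class II dendritic cells, Klf10 by HSC-like cells and Klf13 by monocytes, with no difference from the next class shown for these 3 genes. CFU-E stage progenitors, the erythroid precursors before hemoglobin filling, were the lowest class for Klf2, Klf6 and Klf7, with no difference from the class above shown for Klf6.

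**Figure D1:**
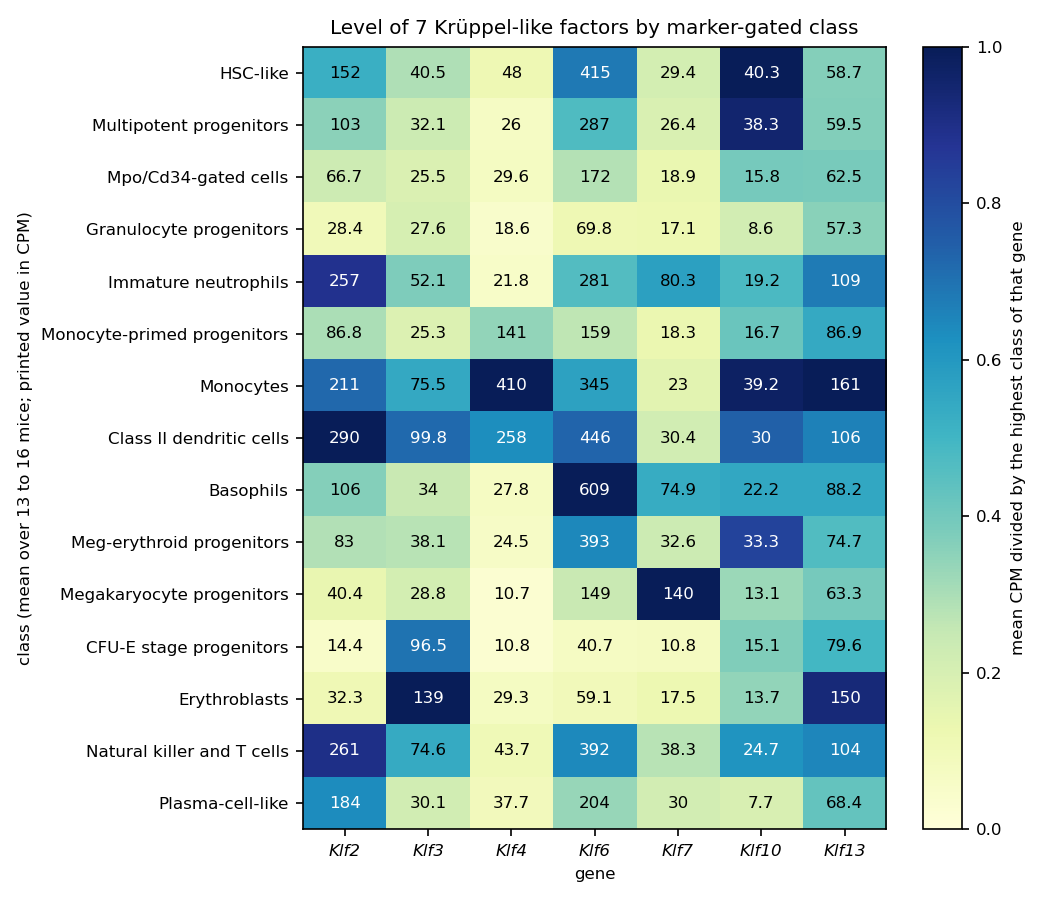
Mean level of each gene (columns) in each marker-gated class (rows), with the mean CPM over 13 to 16 mice printed in the cell and the colour giving it as a share of that gene's highest class. Klf4 is dark in monocytes (410 CPM) and class II dendritic cells (258 CPM) and pale in most other classes, and Klf7 is dark in megakaryocyte progenitors (140 CPM).

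Klf2, the quiescence factor of lymphocytes, ranged from 14.4 ± 12.9 CPM in CFU-E stage progenitors to 290 ± 142 CPM in class II dendritic cells. It was 261 ± 98.6 CPM in natural killer and T cells, 257 ± 205 CPM in immature neutrophils, 211 ± 157 CPM in monocytes and 184 ± 131 CPM in plasma-cell-like cells. Neighbours in this upper part of the order were not shown to differ. The middle of the order held HSC-like cells (152 ± 176 CPM), basophils (106 ± 129 CPM), multipotent progenitors (103 ± 122 CPM), monocyte-primed progenitors (86.8 ± 77.2 CPM), megakaryocyte-erythroid progenitors (83.0 ± 108 CPM) and Mpo/Cd34-gated cells (66.7 ± 74.1 CPM). The SD was close to or above the mean in these 6 classes, and the order within them was not resolved. Below a step at the Mpo/Cd34-gated cells (adjusted p = 0.0109) came megakaryocyte progenitors (40.4 ± 52.6 CPM), erythroblasts (32.3 ± 41.4 CPM) and granulocyte progenitors (28.4 ± 28.7 CPM). The last step, down to CFU-E stage progenitors, also differed (14 of 16 mice, adjusted p = 0.0065).

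Klf4, the monocyte factor, was 410 ± 120 CPM in monocytes, 258 ± 136 CPM in class II dendritic cells and 141 ± 36.8 CPM in monocyte-primed progenitors, and each step differed (adjusted p = 0.0018 for the first and 0.0065 for the second). The next class, HSC-like cells, stood at 48.0 ± 46.8 CPM, and the step down to it was the widest for this gene (mean log2 difference 2.16, 15 of 16 mice, adjusted p = 0.0018). From there the order ran without a shown difference through natural killer and T cells (43.7 ± 26.0 CPM), plasma-cell-like cells (37.7 ± 27.0 CPM), Mpo/Cd34-gated cells (29.6 ± 15.4 CPM), erythroblasts (29.3 ± 22.0 CPM), basophils (27.8 ± 25.7 CPM), multipotent progenitors (26.0 ± 30.8 CPM), megakaryocyte-erythroid progenitors (24.5 ± 19.9 CPM) and immature neutrophils (21.8 ± 22.0 CPM) to granulocyte progenitors (18.6 ± 8.33 CPM). CFU-E stage progenitors (10.8 ± 6.06 CPM) were lower again (adjusted p = 0.0018) and were not shown to differ from megakaryocyte progenitors (10.7 ± 12.6 CPM).

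Klf6, the stress-induced activator, was 609 ± 380 CPM in basophils, above class II dendritic cells at 446 ± 259 CPM (11 of 15 mice, adjusted p = 0.0207). HSC-like cells (415 ± 331 CPM), megakaryocyte-erythroid progenitors (393 ± 300 CPM), natural killer and T cells (392 ± 222 CPM), monocytes (345 ± 200 CPM), multipotent progenitors (287 ± 287 CPM) and immature neutrophils (281 ± 141 CPM) followed with no step shown to differ. Plasma-cell-like cells (204 ± 99.2 CPM) were below neutrophils (adjusted p = 0.0090) and were followed by Mpo/Cd34-gated cells (172 ± 149 CPM), monocyte-primed progenitors (159 ± 110 CPM) and megakaryocyte progenitors (149 ± 84.3 CPM). Granulocyte progenitors (69.8 ± 55.7 CPM) lay below a wide step (mean log2 difference 1.21, 15 of 16 mice, adjusted p = 0.0018). Erythroblasts (59.1 ± 52.0 CPM) and CFU-E stage progenitors (40.7 ± 28.9 CPM) closed the order.

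Klf7, an activator best known from neurons, stood at 140 ± 46.4 CPM in megakaryocyte progenitors, above immature neutrophils at 80.3 ± 28.7 CPM (13 of 15 mice, adjusted p = 0.0040). Basophils, at 74.9 ± 21.8 CPM, were not shown to differ from neutrophils and lay above natural killer and T cells (38.3 ± 25.6 CPM, adjusted p = 0.0040). The other classes were between 32.6 ± 12.3 CPM in megakaryocyte-erythroid progenitors and 17.1 ± 6.23 CPM in granulocyte progenitors, in the order class II dendritic cells, plasma-cell-like, HSC-like, multipotent progenitors, monocytes (23.0 ± 10.1 CPM), Mpo/Cd34-gated, monocyte-primed and erythroblasts, with no step shown to differ. CFU-E stage progenitors were last at 10.8 ± 2.96 CPM (15 of 16 mice below granulocyte progenitors, adjusted p = 0.0018).

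Klf3, the CtBP-binding repressor, was 139 ± 34.0 CPM in erythroblasts, above class II dendritic cells (99.8 ± 54.4 CPM, adjusted p = 0.0307). CFU-E stage progenitors, at 96.5 ± 9.85 CPM, had the smallest SD relative to their mean and were above monocytes (75.5 ± 14.99 CPM, 15 of 16 mice, adjusted p = 0.0025). Natural killer and T cells (74.6 ± 29.5 CPM), immature neutrophils (52.1 ± 14.3 CPM), HSC-like cells (40.5 ± 12.9 CPM) and megakaryocyte-erythroid progenitors (38.1 ± 19.8 CPM) followed. The remaining classes ran from basophils (34.0 ± 10.0 CPM) through multipotent progenitors, plasma-cell-like cells, megakaryocyte progenitors, granulocyte progenitors (27.6 ± 10.3 CPM) and Mpo/Cd34-gated cells to monocyte-primed progenitors (25.3 ± 9.36 CPM). No step after the monocytes was shown to differ. Of the 7 genes, Klf3 and Klf13 alone had both erythroblasts and CFU-E stage progenitors in the upper 8 of their 15 classes.

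Klf13, a Sin3-binding member, was 161 ± 32.5 CPM in monocytes and 150 ± 33.2 CPM in erythroblasts, which were not shown to differ. Immature neutrophils, at 109 ± 21.3 CPM, lay below erythroblasts (13 of 14 mice, adjusted p = 0.0034). All further steps were within the spread, from class II dendritic cells (106 ± 50.8 CPM) and natural killer and T cells (104 ± 38.9 CPM) through basophils, monocyte-primed progenitors, CFU-E stage progenitors (79.6 ± 7.01 CPM), megakaryocyte-erythroid progenitors, plasma-cell-like cells, megakaryocyte progenitors, Mpo/Cd34-gated cells, multipotent progenitors and HSC-like cells (58.7 ± 15.8 CPM) to granulocyte progenitors (57.3 ± 8.86 CPM). Klf10, the TGFβ early gene and the other Sin3-binding member, was 40.3 ± 21.1 CPM in HSC-like cells, 39.2 ± 13.6 CPM in monocytes and 38.3 ± 20.6 CPM in multipotent progenitors. It fell off without a shown step through megakaryocyte-erythroid progenitors (33.3 ± 15.7 CPM), class II dendritic cells, natural killer and T cells, basophils (22.2 ± 7.18 CPM), immature neutrophils, monocyte-primed progenitors, Mpo/Cd34-gated cells, CFU-E stage progenitors (15.1 ± 4.27 CPM) and erythroblasts to megakaryocyte progenitors (13.1 ± 4.45 CPM). Granulocyte progenitors (8.65 ± 2.55 CPM) were below these (14 of 16 mice, adjusted p = 0.0108), next to plasma-cell-like cells (7.74 ± 8.22 CPM).

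Genes among the 3 whose class means were most like those of a member, by Pearson's r of log2(CPM + 1) over the 15 classes among 8751 genes, are given as a description, since the classes share mice and libraries. They were Sp100 (r = 0.92) and Arhgap30 (0.89) for Klf2, Psap (0.96), Irf5 (0.94) and Upb1 (0.92) for Klf4, and Neat1 (0.93), AI467606 (0.92) and Tuba1a (0.92) for Klf6. For Klf7 they were Cd9 (0.86), Pdlim7 (0.83) and Fgd3 (0.82), and for Klf3 they were Picalm (0.88), Mfhas1 (0.86) and Aplp2 (0.85). For Klf10 they were Cspp1 (0.88) and Cmip (0.86), and for Klf13 they were E2f2 (0.93), Cdkn2c (0.90) and Ap2a2 (0.87). Among the members themselves, the most alike were Klf2 and Klf6 (r = 0.80) and Klf3 and Klf13 (r = 0.75).

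IL1β was compared with vehicle in 10 classes, by edgeR's quasi-likelihood test on UMIs summed per mouse, with p-values adjusted over all genes of a class and a call at an adjusted p under 0.05. Of the 70 combinations of a member and a class, 64 passed the filter on low counts. The other 6 were Klf3, Klf4 and Klf7 in multipotent progenitors and Klf4, Klf7 and Klf10 in natural killer and T cells. In WT mice, 4 of the 64 were called, all higher with IL1β (6.25%), where 13% of all gene-by-class values were called, 5.54% higher and 7.46% lower. In Tet2-KO mice, 7 of 64 were called, 4 higher and 3 lower (10.9%), against 16.2% of all values, 7.29% higher and 8.94% lower. The members were therefore called no more often than genes at large, and what follows concerns single genes. At an unadjusted p under 0.05 there were 17 in WT (26.6%) and 24 in Tet2-KO (37.5%), against 27.0% and 30.1% of all values.

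**Figure D2:**
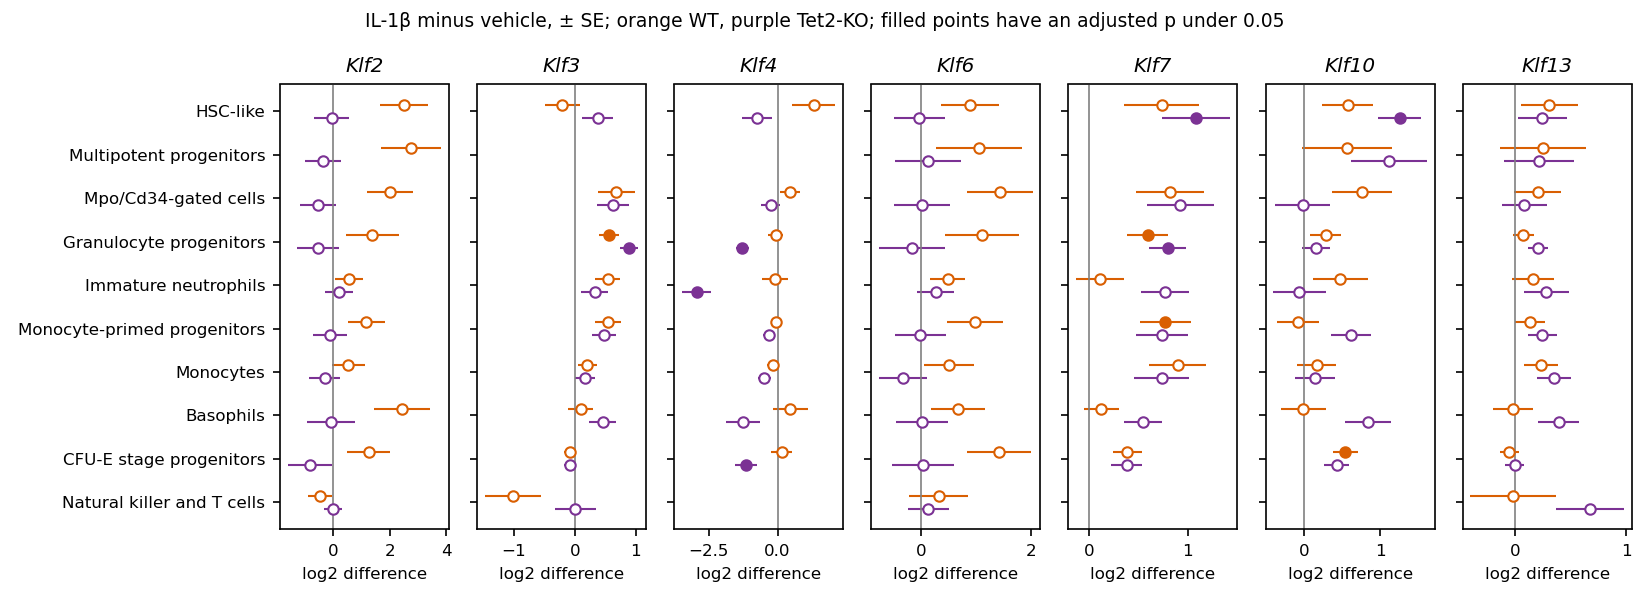
Difference between IL1β and vehicle on the log2 scale with its SE (x axis) for each gene (panels) in the 10 tested classes (rows), orange for WT and purple for Tet2-KO, filled where the edgeR adjusted p was under 0.05. Klf7 lies to the right of 0 in every class and both genotypes, Klf4 lies to the left of 0 in every class of Tet2-KO, and Klf2 has the widest error bars.

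Klf3 was higher with IL1β in granulocyte progenitors of both genotypes, a class in which 32.0% of genes were called in WT and 41.3% in Tet2-KO. In the order of mice 1 to 4, its WT levels were 14.2, 24.6, 23.2 and 23.9 CPM with vehicle and 26.1, 30.3, 42.4 and 47.7 CPM with IL1β. In Tet2-KO they were 20.2, 17.0, 16.7 and 14.5 CPM with vehicle and 39.8, 32.3, 35.2 and 34.2 CPM with IL1β. Every IL1β mouse was above every vehicle mouse of its genotype. The log2 differences were 0.56 (SE 0.17, edgeR adjusted p = 0.0152) in WT and 0.89 (SE 0.15, adjusted p = 0.00018) in Tet2-KO. In monocyte-primed progenitors Klf3 differed by 0.55 and 0.48 and in Mpo/Cd34-gated cells by 0.69 and 0.63, none called (adjusted p = 0.0820 to 0.173), and in CFU-E stage progenitors, where Klf3 was high, by -0.08 in each genotype (SE 0.09). Over its 9 tested classes Klf3 had 6 positive and 3 negative differences in WT (-1.02 to 0.69) and 8 and 1 in Tet2-KO (-0.08 to 0.89). None of the negative ones was called. With the pool number as a replicate block, Klf3 was called in Mpo/Cd34-gated cells of WT (0.86, adjusted p = 0.0488) and Tet2-KO (0.68, adjusted p = 0.0403), and with the mouse number as a block in Tet2-KO (0.69, adjusted p = 0.0477). Another hashtag call gave a call in Tet2-KO in these cells (0.88, adjusted p = 0.0329) and in monocyte-primed progenitors (0.69, adjusted p = 0.0410), and the 8 pools as replicates gave none of these. The WT call was lost without WT vehicle mouse 1 (adjusted p = 0.0778) or WT IL1β mouse 3 (0.0603) and with the 8 pools as replicates (0.0854), while the Tet2-KO call held in all 25 other analyses (other tools, filters, gates and replicate choices, and each mouse left out in turn). Here and below, such counts include the fit without a filter, which is not otherwise used. They also include fits that left out a mouse of the other genotype and so kept every mouse of the comparison.

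**Figure D3:**
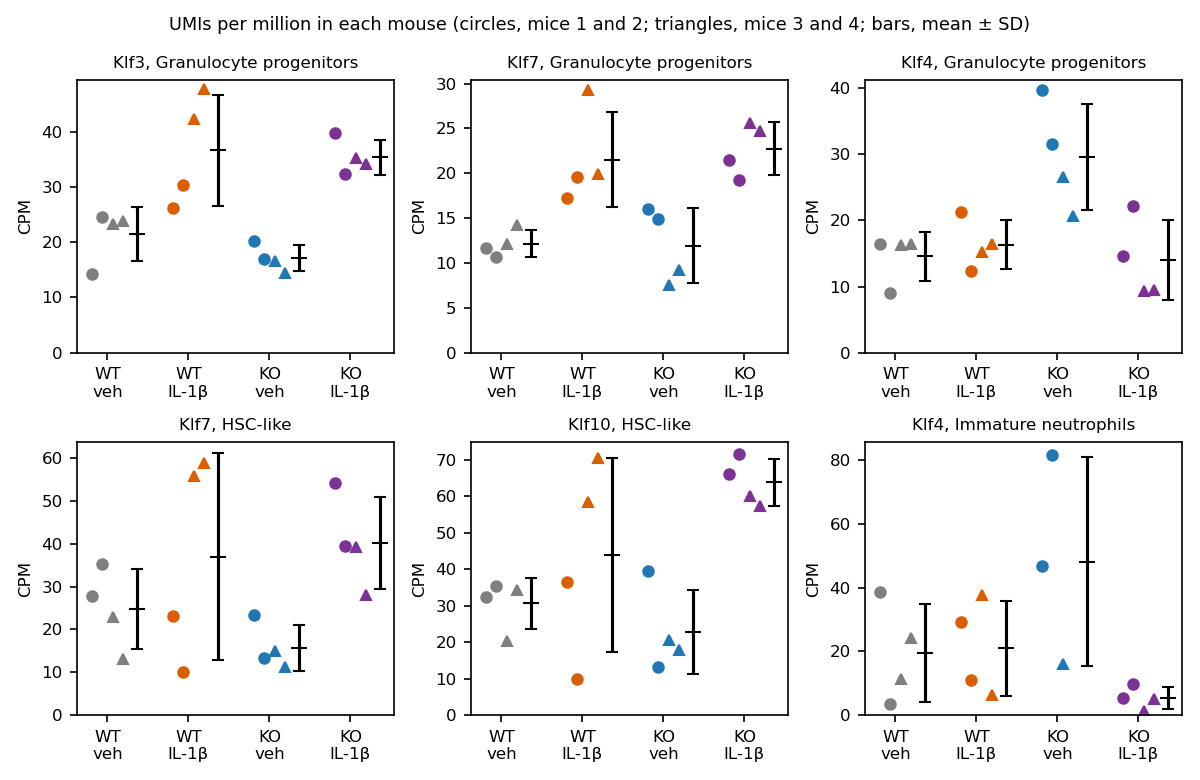
Level in each mouse (y axis, CPM) in the 4 groups (x axis), circles for mice 1 and 2, triangles for mice 3 and 4, bars for the mean ± SD. Klf3 and Klf7 in granulocyte progenitors are higher in every IL1β mouse than in any vehicle mouse of the same genotype, and Klf4 is 20.7 to 39.6 CPM in Tet2-KO vehicle granulocyte progenitors against 9.02 to 22.2 CPM in the other groups.

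Klf7 had a positive difference with IL1β in all 8 classes in which it was tested, in both genotypes (median 0.66 in WT and 0.76 in Tet2-KO on the log2 scale), with 2 calls in each. The classes share mice and libraries, so here and for the other members such counts of classes are a description and not replication. In granulocyte progenitors it was 11.7, 10.7, 12.1 and 14.2 CPM in WT vehicle mice and 17.2, 19.6, 29.3 and 20.0 CPM in WT IL1β mice. In Tet2-KO granulocyte progenitors it was 16.0, 14.9, 7.52 and 9.25 CPM with vehicle and 21.4, 19.2, 25.7 and 24.7 CPM with IL1β. Neither genotype had overlapping groups, and the differences were 0.59 (SE 0.21, edgeR adjusted p = 0.0336) and 0.80 (SE 0.18, adjusted p = 0.00199). In WT monocyte-primed progenitors, in which 14.0% of genes were called, Klf7 was 14.1, 12.96, 8.76 and 19.5 CPM with vehicle and 22.0, 25.3, 34.3 and 25.5 CPM with IL1β. These groups did not overlap (difference 0.77, SE 0.26, edgeR adjusted p = 0.0456), and Tet2-KO had a difference of 0.74 (SE 0.27, adjusted p = 0.0512), which was called with the pool number as a replicate block (0.75, adjusted p = 0.0470), with cells of at least 1500 genes (0.84, adjusted p = 0.0340) and without any 1 of 6 single mice (adjusted p = 0.0256 to 0.0496), but not with the mouse number as a block, the pools or DESeq2. In HSC-like cells of Tet2-KO, in which 11.1% of genes were called, Klf7 was 23.3, 13.3, 15.04 and 11.2 CPM with vehicle and 54.1, 39.5, 39.3 and 28.0 CPM with IL1β. The groups were again apart (difference 1.08, SE 0.34, edgeR adjusted p = 0.0377), from 2 to 13 UMIs per vehicle mouse and 9 to 38 per IL1β mouse.

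The call for Klf7 in granulocyte progenitors of Tet2-KO held in all 25 other analyses, but its size was 0.21 in mice 1 and 2 alone (adjusted p = 0.251) and 1.46 in mice 3 and 4 alone. The other 3 calls were less stable. The WT call in granulocyte progenitors was lost without WT vehicle mouse 1, 2 or 3 or WT IL1β mouse 3 (adjusted p = 0.0577 to 0.152), with p-values adjusted over all classes together (0.0639), with the mouse number as a replicate block (0.0526) and with the 8 pools as replicates (0.117). The WT call in monocyte-primed progenitors was lost without WT vehicle mouse 1, 2 or 3, WT IL1β mouse 2, 3 or 4, or Tet2-KO vehicle mouse 4 (adjusted p = 0.0507 to 0.204), with DESeq2 (0.0749), with the pools (0.122) and with another hashtag call (0.122). The call in Tet2-KO HSC-like cells was lost without vehicle mouse 2, 3 or 4 or IL1β mouse 1, 2 or 3 of that genotype (adjusted p = 0.0543 to 0.134). Further values of Klf7 passed under some alternatives. In WT monocytes, where the difference was widest for WT (0.90, SE 0.29, edgeR adjusted p = 0.0684), it was called when adjusted over all classes together (0.0441), with another hashtag call (0.0234) and with at least 1500 genes per cell (0.0415). In Tet2-KO it was called in monocytes with another hashtag call (0.0355), in immature neutrophils when adjusted over all classes (0.0330) and in Mpo/Cd34-gated cells with the pool number as a replicate block (0.0485) and with at least 1500 genes (0.0286). In WT it was also called in HSC-like cells with another hashtag call (0.0302), in CFU-E stage progenitors with the pool block (0.0307) and in Mpo/Cd34-gated cells with the 8 pools as replicates (0.0432). In megakaryocyte progenitors, the class highest for Klf7, no test was made, although the class held enough cells and mice. There its levels were 127, 211, 112 and 89.7 CPM in WT vehicle mice and 139, 106, 158 and 129 CPM in WT IL1β mice, which overlapped. In Tet2-KO they were 163, 230, 111 and 86.5 CPM with vehicle and 153, 220, 86.3 and 122 CPM with IL1β, which overlapped too.

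Klf10 was higher with IL1β in HSC-like cells of Tet2-KO and in CFU-E stage progenitors of WT. In Tet2-KO HSC-like cells it was 39.4, 13.3, 20.7 and 17.8 CPM with vehicle and 66.2, 71.7, 60.1 and 57.4 CPM with IL1β, a difference of 1.26 (SE 0.28, edgeR adjusted p = 0.00369). The groups did not overlap, and the IL1β mice were within a narrow range. In WT HSC-like cells it was 32.5, 35.4, 20.4 and 34.3 CPM with vehicle and 36.4, 9.99, 58.4 and 70.6 CPM with IL1β, with overlapping groups (difference 0.57, SE 0.34, edgeR adjusted p = 0.360). The WT values rest on 1 to 24 UMIs per mouse, and the difference between the genotypes' responses was 0.69 (SE 0.44, adjusted p = 1.00). The Tet2-KO call was lost with a stricter gate (0.97, adjusted p = 0.214) and with cells of at least 1500 genes (0.73, adjusted p = 0.223), as well as in mice 1 and 2 alone (1.02, adjusted p = 0.284).

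In WT CFU-E stage progenitors, in which 22.8% of genes were called, Klf10 was 15.2, 7.44, 12.2 and 11.1 CPM with vehicle and 22.6, 18.9, 18.7 and 19.5 CPM with IL1β. The groups did not overlap (difference 0.54, SE 0.16, edgeR adjusted p = 0.0209). In Tet2-KO, the levels were 11.5, 14.4, 9.49 and 11.9 CPM with vehicle and 18.97, 18.6, 13.7 and 16.7 CPM with IL1β. Here mouse 3 of the IL1β group was below mouse 2 of the vehicle group (difference 0.43, SE 0.17, edgeR adjusted p = 0.0767). The Tet2-KO value was called with the stricter gate (0.59, adjusted p = 0.0316) and without WT vehicle mouse 1 (0.43, adjusted p = 0.0450). The WT call was lost without WT vehicle mouse 4 (adjusted p = 0.0848) or WT IL1β mouse 1 (0.0867).

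Klf4 was lower with IL1β in granulocyte progenitors, immature neutrophils and CFU-E stage progenitors of Tet2-KO, and it had a negative difference in all 8 tested classes of that genotype (median -0.96). In WT it had 4 positive and 4 negative differences and no call. Other analyses also called it lower in Tet2-KO basophils, with the pool number as a replicate block (-1.40, edgeR adjusted p = 0.0344). Without Tet2-KO IL1β mouse 2 it was called lower in Tet2-KO HSC-like cells (-2.49, edgeR adjusted p = 0.0128). In Tet2-KO granulocyte progenitors Klf4 was 39.6, 31.5, 26.5 and 20.7 CPM with vehicle and 14.6, 22.2, 9.38 and 9.51 CPM with IL1β. Only mouse 2 of the IL1β group reached the vehicle range (difference -1.28, SE 0.23, edgeR adjusted p = 0.00026), and the call held in all 25 other analyses. WT granulocyte progenitors had 16.5, 9.02, 16.2 and 16.5 CPM with vehicle and 21.3, 12.4, 15.3 and 16.4 CPM with IL1β, with a fitted difference of -0.07 (SE 0.26, adjusted p = 0.870). The printed CPM are not scaled between mice as in the fit, and their mean was slightly higher with IL1β. The Tet2-KO vehicle mice were the high group, as 3 of them were above all mice of the other groups.

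In Tet2-KO immature neutrophils, in which 7.33% of genes were called, Klf4 was 46.7, 81.6 and 16.1 CPM in the 3 vehicle mice with at least 10 cells and 5.24, 9.85, 1.20 and 4.98 CPM with IL1β. The groups did not overlap and rest on 60, 16 and 4 UMIs against 2, 13, 1 and 3 UMIs (difference -2.95, SE 0.54, edgeR adjusted p = 0.00351). The call held in all 23 of the 25 other analyses that gave an adjusted p for it. DESeq2 was among those that gave none. WT neutrophils had 38.7, 3.54, 11.2 and 24.1 CPM with vehicle and 29.1, 10.96, 37.6 and 6.17 CPM with IL1β, which overlapped. In Tet2-KO CFU-E stage progenitors, in which 19.3% of genes were called, it was 20.4, 26.8, 6.47 and 7.98 CPM with vehicle and 8.30, 10.0, 2.85 and 5.47 CPM with IL1β. These groups overlapped, the call was at the limit (difference -1.16, SE 0.40, edgeR adjusted p = 0.04996), and it held in 9 of 25 other analyses. It was lost without any 1 of 13 single mice, at adjusted p-values up to 0.173 (without Tet2-KO vehicle mouse 1), and it was weakest with the 8 pools as replicates (-0.65, adjusted p = 0.354) and with another hashtag call (-0.60, adjusted p = 0.510).

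Of the 6 markers of the monocyte gate, Csf1r and Ms4a6c were called lower with IL1β in each of these 3 classes of Tet2-KO, with log2 differences of -0.40 and -0.87 in granulocyte progenitors (edgeR adjusted p = 0.0237 and 7.19e-05), -2.09 and -2.10 in neutrophils (0.0165 and 0.00866) and -1.04 and -1.14 in CFU-E stage progenitors (0.0194 and 0.00257). Ccr2 was called lower as well in neutrophils (-1.44, adjusted p = 0.0376), Ly6c2 was called higher there (0.52, adjusted p = 0.0483), and the other markers tested were not called. No marker was at 0 throughout a group. Negative differences were found for 5 of 6 markers tested in granulocyte progenitors, 4 of 5 in neutrophils and 5 of 6 in CFU-E stage progenitors. The summed level of the 6 markers was 2151 to 2686 CPM with vehicle and 2537 to 2854 CPM with IL1β in granulocyte progenitors of Tet2-KO and 1033 to 1378 against 1389 to 1581 CPM in neutrophils, and it overlapped in CFU-E stage progenitors (126 to 377 against 108 to 301 CPM). Most of the sum was Ly6c2, so it does not stand for the other markers. Mean Ly6c2 with vehicle and IL1β was 2079 and 2291 CPM in granulocyte progenitors and 987 and 1424 CPM in neutrophils. The part of monocyte RNA or of monocytes in these classes in the change of Klf4 was not tested. In the monocytes themselves, where Klf4 was highest, it was 388, 599, 410 and 376 CPM in WT vehicle, 541, 350, 365 and 274 CPM in WT IL1β, 485, 647, 356 and 390 CPM in Tet2-KO vehicle and 380, 524, 242 and 234 CPM in Tet2-KO IL1β mice. These ranges overlapped (Tet2-KO difference -0.48, SE 0.23, adjusted p = 0.228), though Klf4 was called lower there with another hashtag call (-0.74, adjusted p = 0.0338) and in mice 3 and 4 alone (-0.71, adjusted p = 0.00425).

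The share of cells with a Klf4 UMI, after each cell was thinned to 1500 UMIs, was 4.39% ± 1.19 (SD over 4 mice) in Tet2-KO vehicle granulocyte progenitors, 1.78% ± 0.63 with IL1β, and 1.72% ± 0.61 and 1.84% ± 0.54 in WT (15.1%, 8.61%, 7.27% and 7.28% before thinning). CFU-E stage progenitors, an erythroid class taken as the comparison, had 1.40% to 1.74% in the 4 groups, a level that 3 of the 4 groups of granulocyte progenitors were near and that is not read as expression. By CPM with the groups pooled, granulocyte progenitors were above CFU-E stage progenitors in 15 of 16 mice (sign-flip permutation test, adjusted p = 0.0018). The call of lower Klf4 in CFU-E stage progenitors of Tet2-KO was made in the comparison class itself. The range of shares was taken from its own 4 groups, so it cannot serve as a check of that call. Whether the CFU-E stage cells themselves express Klf4 was not tested. The share in monocytes was 39.6% to 47.5%. Immature neutrophils had 5.38% ± 3.39 in Tet2-KO vehicle (3 mice) and 1.19% ± 0.81 in Tet2-KO IL1β, the latter below the share in CFU-E stage progenitors. Median depths were 7830 UMIs per cell in granulocyte progenitors, 3730 in neutrophils and 10825 in CFU-E stage progenitors, and at most 22 cells per group of these 3 classes were too shallow to thin.

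Klf2 and Klf6 had no call with IL1β. With the pool number as a replicate block, Klf2 was called higher in WT basophils (1.85, edgeR adjusted p = 0.0164) and Klf6 in WT granulocyte progenitors (0.88, adjusted p = 0.0306) and CFU-E stage progenitors (1.16, adjusted p = 0.0239), and with the mouse number as a block these 3 were called too (adjusted p = 0.0192 to 0.0451), but none of them was called with the 8 pools as replicates. In WT, Klf2 had a positive difference in 9 of 10 classes (median 1.32) and Klf6 in 10 of 10 (median 0.95), and in Tet2-KO the medians were -0.20 and 0.02. The widest for Klf6 in WT were Mpo/Cd34-gated cells (1.44, SE 0.59, adjusted p = 0.129) and CFU-E stage progenitors (1.43, SE 0.58, adjusted p = 0.0819). In WT HSC-like cells Klf2 was 46.4, 35.4, 54.9 and 14.7 CPM with vehicle and 553, 69.9, 17.0 and 47.0 CPM with IL1β. A single mouse stood far above the rest, and the groups overlapped (difference 2.495, SE 0.84, edgeR adjusted p = 0.0770, or 0.0464 when adjusted over all classes together). Klf13 had no call either, with medians of 0.15 in WT and 0.24 in Tet2-KO. In Tet2-KO granulocyte progenitors Klf13 was called higher with the stricter gate (0.24, adjusted p = 0.0277). It was also called there without Tet2-KO vehicle mouse 1 (0.25, adjusted p = 0.0489) or Tet2-KO IL1β mouse 4 (0.25, adjusted p = 0.0486). Its widest difference was 0.67 (SE 0.31, adjusted p = 0.214) in natural killer and T cells of Tet2-KO, where it was 75.3, 41.1, 149 and 45.3 CPM with vehicle and 137, 147, 168 and 106 CPM with IL1β.

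Tet2-KO and WT were compared under vehicle and under IL1β, and the difference of their responses to IL1β was tested as an interaction. None of the 64 member values was called in any of these by edgeR, where 0.0317% of all gene-by-class values were called under vehicle, 0.306% under IL1β and 0.00924% in the interaction. At an unadjusted p under 0.05 there were 14, 7 and 7 (21.9%, 10.9% and 10.9%), against 4.28%, 8.35% and 4.33% of all values. DESeq2 called 1, 0 and 0, the first being Klf4 in granulocyte progenitors under vehicle (0.99, adjusted p = 0.0360, against 0.96, SE 0.25, adjusted p = 0.267 in edgeR). Klf2, Klf4 and Klf6 had positive differences between Tet2-KO and WT under vehicle in all 10, 8 and 10 of their tested classes, with medians of 1.62, 0.65 and 1.05. The classes come from the same mice and libraries, so neither these counts nor those of unadjusted p-values are counts of independent results. The share of positive differences over all genes is not given.

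HSC-like cells show how wide the spread behind these differences was. Under vehicle, Klf2 there was 406, 279, 88.4 and 22.3 CPM in Tet2-KO against 14.7 to 54.9 CPM in WT (difference 2.36, SE 0.84, edgeR adjusted p = 0.729). Klf6 was 990, 685, 344 and 127 CPM in Tet2-KO against 195, 354, 290 and 78.4 CPM in WT (1.45, SE 0.52, adjusted p = 0.729). For Klf2 only mouse 4 of the Tet2-KO group lay within the WT range, and for Klf6 mice 3 and 4 did. Klf4 was 143, 93.1, 35.7 and 6.69 CPM in Tet2-KO and 23.2, 142, 17.9 and 8.17 CPM in WT, the value of 142 CPM coming from 4 UMIs in 10 cells (1.96, SE 0.70, adjusted p = 0.729). Under IL1β the differences between the genotypes were -0.19 (SE 0.63) for Klf2, -0.11 (SE 0.62) for Klf4 and 0.53 (SE 0.48) for Klf6, with adjusted p-values of 0.950 to 1.00.

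The lower Klf4 with IL1β in Tet2-KO was not shown to differ from WT. The interaction was -1.21 (SE 0.35, unadjusted p = 0.00244, adjusted p = 0.984) in granulocyte progenitors, -2.86 (SE 0.72, unadjusted p = 0.000538, adjusted p = 0.539) in immature neutrophils and -1.30 (SE 0.56, unadjusted p = 0.0302, adjusted p = 1.00) in CFU-E stage progenitors. Under IL1β, Klf4 and Klf7 in immature neutrophils came closest to a call between the genotypes. Klf7 there was 83.9, 114, 107 and 148 CPM in Tet2-KO and 68.5, 79.5, 85.04 and 80.2 CPM in WT, overlapping by 1 mouse (0.73, SE 0.21, edgeR adjusted p = 0.0564). The difference for Klf4 was -1.78 (SE 0.54, adjusted p = 0.0705). Both were called with the 8 pools as replicates (adjusted p = 0.0423 for Klf7 and 0.0382 for Klf4) and with another hashtag call (0.0270 and 0.0326), and with the pool number as a replicate block Klf7 was called (0.0481), as was Klf2 (1.01, adjusted p = 0.0467), which had no call with the 8 pools.

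In WT IL1β and in both Tet2-KO groups, the pairs of mice differed more in Klf2 and Klf6 than in Klf3, Klf7, Klf10 and Klf13, and in the Tet2-KO groups they did so in Klf4 as well. In HSC-like cells, Klf2 was 295 and 417 CPM in mice 1 and 2 of the Tet2-KO IL1β group and 46.3 and 35.3 CPM in mice 3 and 4. Over the 15 classes (14 for Klf4 in WT IL1β and Klf7 in Tet2-KO IL1β), the mean of mice 1 and 2 divided by that of mice 3 and 4 had a median of 1.48 in WT vehicle, 4.09 in WT IL1β, 5.54 in Tet2-KO vehicle and 5.55 in Tet2-KO IL1β for Klf2, and it was above 1 in 12, 15, 15 and 15 classes. For Klf6 the medians were 1.52, 2.30, 3.56 and 2.89, and for Klf4 they were 0.78, 1.499, 2.49 and 2.20. Klf3, Klf7, Klf10 and Klf13 had medians between 0.73 and 1.43.

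**Figure D4:**
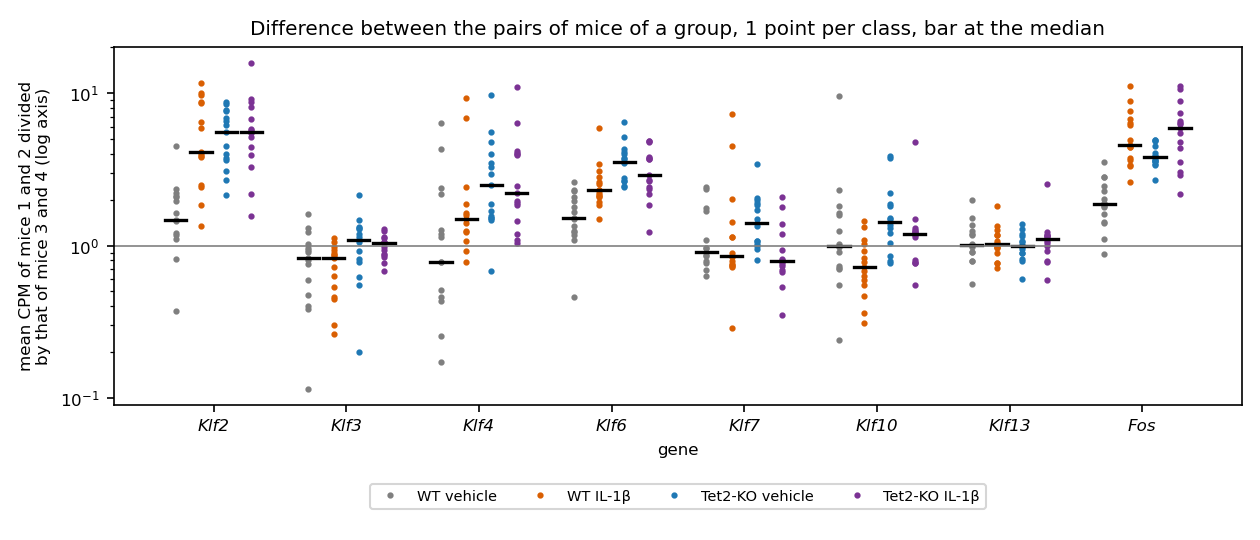
Mean CPM of mice 1 and 2 divided by that of mice 3 and 4 of the same group (y axis, log scale), 1 point per class, with a bar at the median, for each member and for Fos (x axis) and in the 4 groups (colours). Points of Klf2, Klf6 and Fos lie above 1 in all 15 classes of 3 groups, and those of Klf13 scatter around 1. A ratio of 0 in 1 class each of Klf2, Klf4 and Klf7 in WT vehicle is not drawn.

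Fos, an immediate early gene that dissociation of tissue also raises, followed the same mice. Its ratio between the pairs had a median of 1.88, 4.56, 3.78 and 5.87 in the 4 groups in the order above. Those of Jun were 1.71, 1.97, 2.20 and 2.40, and those of Egr1 were 2.48, 2.81, 4.48 and 5.29. In HSC-like cells the 5 mice highest in Fos were the 5 highest in Klf2 and in Klf6, and they held 4 of the 5 highest in Klf4, 2 each for Klf7 and Klf10, and 1 each for Klf3 and Klf13. These 5 were WT IL1β mouse 1 and mice 1 and 2 of both Tet2-KO groups. Whether the stress of dissociation, the library or the mice set these levels was not tested, and the summed level of 15 immediate early genes in HSC-like cells was 1650 to 4407 CPM in WT vehicle, 5987 to 9770 CPM in WT IL1β, 3093 to 12845 CPM in Tet2-KO vehicle and 7371 to 13099 CPM in Tet2-KO IL1β mice.

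**Figure D5:**
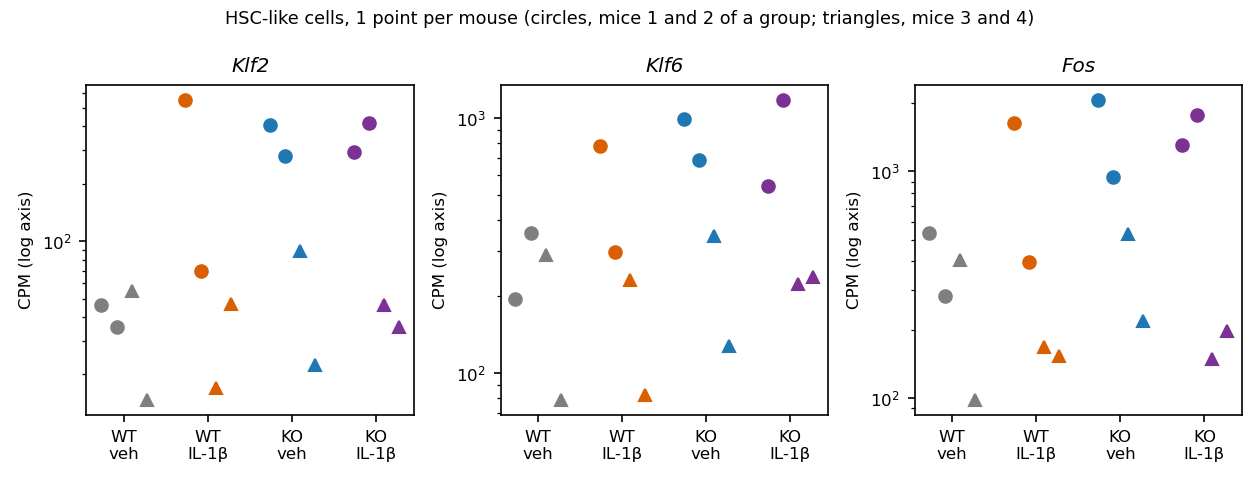
Level of Klf2, Klf6 and Fos in HSC-like cells (y axis, CPM, log scale) of each mouse in the 4 groups (x axis), circles for mice 1 and 2 and triangles for mice 3 and 4. The 5 highest points of each panel are the same 5 circles, in WT IL1β and in both Tet2-KO groups, and WT vehicle has none of them.

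With each pair of mice fitted alone, an alternative chosen after seeing the data, the fitted sign for Klf2 in HSC-like cells differed between the pairs. Its difference with IL1β in WT was 2.95 in mice 1 and 2 (edgeR adjusted p = 0.0433) and -0.84 in mice 3 and 4 (adjusted p = 0.490). The latter was not called, and the former includes WT IL1β mouse 1, which stood at 553 CPM, so a change of direction was not shown. Under vehicle, Tet2-KO minus WT in HSC-like cells was 2.96 for Klf2, 1.89 for Klf6 and 1.69 for Klf4 in mice 1 and 2, and 0.69, 0.39 and 0.76 in mice 3 and 4. The 11 calls described above kept their direction in each pair that could be fitted, but in mice 1 and 2 alone 6 of 10 were lost, with all 4 of WT among them, and in mice 3 and 4 alone 2 of 10 were lost. In granulocyte progenitors of Tet2-KO, Klf3 (0.76 and 0.99) and Klf4 (-1.12 and -1.49) were called in both pairs, as was Klf4 in CFU-E stage progenitors (-1.33 and -0.87), while Klf10 in CFU-E stage progenitors of WT was called in neither (adjusted p = 0.208 and 0.0560).

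Genes around the family were read from lists of relatives, partners and targets. Of the other Krüppel-like and Sp factors, 66 gene-by-class values were tested, of which 7 were called higher and 1 lower with IL1β in WT (12.1%) and 5 higher and 1 lower in Tet2-KO (9.09%), against 13% and 16.2% of all values, of which 5.54% and 7.29% were called higher. Klf9, a relative of Klf13, was called higher in WT HSC-like cells (1.54, edgeR adjusted p = 0.0156), monocyte-primed progenitors (1.34, adjusted p = 0.0112), monocytes (1.53, adjusted p = 0.0459), granulocyte progenitors (0.78, adjusted p = 0.0201) and CFU-E stage progenitors (0.67, adjusted p = 0.00577). Klf11, the closest relative of Klf10, was called higher in CFU-E stage progenitors of WT (0.82, adjusted p = 0.00317) and Tet2-KO (0.87, adjusted p = 0.00367) and in granulocyte progenitors of Tet2-KO (0.79, adjusted p = 0.00407). Klf1, the erythroid activator, was lower in WT immature neutrophils (-1.83, adjusted p = 0.0100), a class not of its lineage, and Sp1 was higher in WT granulocyte progenitors (0.29, adjusted p = 0.0168). Of 57 values of the corepressors, 1 was called in WT and 2 in Tet2-KO (1.75% and 3.51%), namely Ctbp2 in Mpo/Cd34-gated cells of WT (-1.25, adjusted p = 0.0145), Hdac2 in granulocyte progenitors of Tet2-KO (-0.25, adjusted p = 0.0168) and Ctbp1 in natural killer and T cells of Tet2-KO (1.00, adjusted p = 0.0315).

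The MEK5, ERK5 and MEF2 genes, which drive Klf2 and Klf4 in other cells, had 2 of 43 values called in WT, both higher, and 4 in Tet2-KO, 3 higher and 1 lower (4.65% and 9.30%). Mef2a was higher with IL1β in monocyte-primed progenitors (0.48, edgeR adjusted p = 0.0353) and granulocyte progenitors (0.31, adjusted p = 0.0428) of Tet2-KO and in CFU-E stage progenitors of WT (0.40, adjusted p = 0.0439). Mef2d was higher in CFU-E stage progenitors of WT (0.32, adjusted p = 0.0377) and monocyte-primed progenitors of Tet2-KO (0.36, adjusted p = 0.0472). Mef2c was lower with IL1β in immature neutrophils of Tet2-KO (-1.49, edgeR adjusted p = 0.0109), and it was also lower there in Tet2-KO than in WT under IL1β (-1.33, adjusted p = 0.0187). Of lymphocyte targets of Klf2 and Klf13, 29 values were tested, with 2 called higher and 2 lower in WT (13.8%) and 5 higher and 2 lower in Tet2-KO (24.1%), against 13% and 16.2% of all values. Itgb7, an integrin subunit of lymphocyte homing, gave the 2 lower calls of Tet2-KO, in granulocyte progenitors (-1.23, adjusted p = 0.00013) and neutrophils (-2.38, adjusted p = 0.0217), and was lower in WT basophils (-0.58, adjusted p = 0.0288). Ccl5, the target of Klf13, was lower with IL1β in natural killer and T cells of WT (-1.46, adjusted p = 0.00766) and higher in Tet2-KO than in WT under IL1β (1.58, adjusted p = 0.0144), in a class where Klf13 had no call. Ccl5 is also a marker of the gate of this class, so cells were chosen in part by it. The part of this choice in its differences was not tested. Of immediate early genes, 23 of 141 values were called in WT and 10 in Tet2-KO, all higher (16.3% and 7.09%, against 5.54% and 7.29% of all values called higher), with Junb in HSC-like cells at 2.61 (adjusted p = 0.000138) and 1.90 (adjusted p = 0.00044). Under vehicle none of the lists had a called difference between the genotypes.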

How the data were processed

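Lin- bone marrow of 16 mice was profiled by 10x 3′ single-cell RNA-seq with hashtags. The authors aligned reads to GRCm38 (mm10) with Cell Ranger 3.1.0 and deposited filtered matrices of UMI counts per gene and barcode. The submitters' processing notes also name Seurat 3.2.3. The annotation release is not given in the sources used here.

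Barcodes with at least 750 genes and at most 10% mitochondrial UMIs were kept, as in the study, and given to mice with HTODemux (Seurat 5.3.0). Of these, 3938 carried both hashtags and 33083 none, and neither entered the tests. A marker was positive in a cell with at least 1 UMI and at least 10% of the 99.5th percentile of its UMIs per 10000. A class needed 3 positive markers (2 for HSC-like, plasma-cell-like, eosinophil lineage, common lymphoid progenitor and stromal or endothelial cells) and no excluded marker, and 2 markers were not measured. No classes of the authors were used, so class names may differ from theirs. UMIs were summed per mouse and class (at least 10 cells, at least 3 mice per group), which gave 28254 to 961985 UMIs per mouse in HSC-like cells and 1219873 to 21570028 in granulocyte progenitors. Of the 15 classes within these limits, 10 were tested. Class II dendritic cells, megakaryocyte progenitors, megakaryocyte-erythroid progenitors, erythroblasts and plasma-cell-like cells were within them but not tested. edgeR 4.0.16 (R 4.3.3) fitted the 4 groups together, after filterByExpr and with TMM factors, with the quasi-likelihood test and Benjamini-Hochberg adjustment over all genes of a class and contrast. The fit was tested on simulated counts with 200 changed genes. It recovered 63% of log2 changes of 1 and 94% of changes of 2 for IL1β in WT HSC-like cells (6934 genes), 48% and 91% for Tet2-KO against WT with vehicle in HSC-like cells (6917 genes), and 87% and 98% for IL1β in WT granulocyte progenitors (10945 genes). In the same order, 3.68%, 7.33% and 3.14% of the simulated calls were false. The simulated mice were independent and had no library effect, so these shares do not describe genes that differed between the pairs of mice, such as Klf2 and Klf6. Alternatives were DESeq2 1.42.0, no filter, replicate blocks, the 8 pools as replicates, another hashtag call, stricter gates, at least 1500 genes per cell, another adjustment and leaving out each mouse.

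The members and gene lists were chosen with earlier results of these data known. Named were all 7 members in each class and, from the lists, at most 4 genes called, by smallest adjusted p. Likeness used genes with a highest class mean of at least 20 CPM. Some genes that these rules would name are not reported here. Pools and mice of different groups share a number by label, and whether they also share a batch cannot be told from it. Over all genes, mice sharing a number did not deviate together (median correlations of -0.0127 to 0.0679 over the classes, and in each class at least 1 pair under 0.1). Such a median cannot show an effect on a small set of genes. Klf2, Klf6, Fos, Jun and Egr1 were higher in mice 1 and 2 than in mice 3 and 4 of every group by their median over the classes. Within a group, mice of 1 library were more alike than mice of different libraries in all 10 tested classes (median correlations of -0.348 to 0.146 against -0.584 to -0.378), and the test treats the 4 mice as independent. Promoters were taken from the RefSeq table for 6 of the 7 members.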

Additional observations from a re-analysis of the deposited data

Results flagged for a closer look

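Of 47 groups of 4 mice examined for the members, 5 held 1 mouse whose gap to the nearest other mouse, divided by the range, was above Dixon's critical value at 95%. Chance gives such a gap in about 1 in 20 groups. Klf2 in HSC-like cells of WT IL1β mouse 1 was 553 CPM, where the other mice had 17.0 to 69.9 CPM. Klf4 in HSC-like cells of the same mouse was 74.5 CPM, against 20.0 to 26.8 CPM. Klf4 in HSC-like cells of WT vehicle mouse 2 was 142 CPM, against 8.17 to 23.2 CPM, from 10 cells. Klf3 in granulocyte progenitors of WT vehicle mouse 1 was 14.2 CPM, against 23.2 to 24.6 CPM. Klf4 in granulocyte progenitors of WT vehicle mouse 2 was 9.02 CPM, against 16.2 to 16.5 CPM.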

How the results depend on the processing

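Of the 64 member values tested, 4 were called with IL1β in WT, 7 with IL1β in Tet2-KO and 0 in each of the genotype comparisons and the interaction. Without a filter on low counts these became 17, 13, 15, 7 and 10 of 70. That fit gave similar differences with far smaller p-values, such as an adjusted p of 2.11e-24 in place of 0.0770 for Klf2 in WT HSC-like cells, although the mice ranged from 17.0 to 553 CPM. The cause was not tested, and these calls are used only in the counts of other analyses in which a call held. With the pool number as a replicate block, 9 were called in WT, 11 in Tet2-KO and 2 between genotypes under IL1β, and with the mouse number as a replicate block 6 and 8 were called with IL1β. The 8 pools as replicates gave 2 in WT and 2 between genotypes under IL1β, the other hashtag call gave 2 between genotypes under IL1β, and DESeq2 gave 1 between genotypes under vehicle. Leaving out 1 mouse at a time gave 1 to 6 in WT, 5 to 12 in Tet2-KO, 0 to 0 under vehicle, 0 to 2 under IL1β and 0 to 0 in the interaction, with 1 in WT without WT vehicle mouse 1, 2 without WT vehicle mouse 2 and 12 in Tet2-KO without Tet2-KO vehicle mouse 1. Mice 1 and 2 alone, added after seeing the data, gave 6 in WT, none of them among the 4, and 4 in Tet2-KO, 5 under vehicle, 1 under IL1β and 2 in the interaction. Mice 3 and 4 alone gave 7 in WT, 13 in Tet2-KO, 1, 2 and 1. For these counts the cause was not tested. The share of all genes called under each alternative is not given here, so the counts are not read as a result about the members. No called value changed sign in an alternative. Levels moved by more than 1 SD in 4 of 98 values with a stricter gate and in 1 of 105 with pools. Erythroblasts kept 5 cells under the stricter gate, too few for a level. The first place of Klf3 and the second of Klf13 in that class were therefore not checked with it. Klf4 in neutrophils and Klf7 and Klf10 in HSC-like cells rest on few UMIs per mouse, which limits their precision.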
